A study of Mus musculus with 44 samples.

Results

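A set of genes for potassium channels, regulators of the sodium pump and water channels were followed across mouse organoid RNA-seq libraries. They are Kcne3, Kcnq1, Kcnj15, Kcnj16, Fxyd3, Fxyd6, Aqp3 and Aqp4, 8 of the 19733 genes in the deposited count table, and they were picked by name with earlier results of these libraries known. The name of the set calls them gastric, so their difference between gastric and intestinal organoids is given as a description and is no independent evidence, and no source used here records which values were looked at when they were picked. Organoids are epithelial cells grown from tissue in a gel as small hollow bodies. The count table covers 20 libraries in a pair of experiments that were kept apart throughout.

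In the first experiment, 11 libraries from C57BL/6 mice were measured. They comprised gastric organoid lines transduced with lentivirus for CDX2 (3 lines), for HNF4A (3 lines) or for GFP, the neutral control product (3 lines), and small intestine organoids (2 lines). Both CDX2 and HNF4A regulate transcription in intestinal epithelial cells. In the second experiment, 9 libraries came from C57BL/6 stomach antrum organoids that all overexpressed HNF4A, wild-type controls included, with 3 wild-type libraries and 3 each with 1 or both copies of an enhancer 3' of Cdx2 deleted (heterozygous and homozygous). The promoter of the lentiviral products, the number of clones per line and whether replicates came from separate mice are not stated in the labels, so p-values measure the spread between these libraries, which may be technical. For the lentiviral lines one label field reads small intestine organoids, while the titles and the tissue tag give gastric organoids, and the latter were followed.

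Potassium channels, the sodium pump and aquaporins set the ion gradients and water flow on which gastric and intestinal secretion and absorption depend. KCNQ1 is a voltage-gated potassium channel whose behaviour is set by small KCNE subunits: with KCNE3 it stays open and recycles potassium at the basolateral side of epithelia that secrete chloride, and with KCNE2 it returns potassium to the lumen in the acid-secreting parietal cells of the stomach. KCNJ15 and KCNJ16 are inwardly rectifying potassium channels, FXYD proteins are small membrane proteins that tune the Na,K-ATPase, AQP3 carries water and glycerol at basolateral membranes, and AQP4 is a water channel known from the basolateral membrane of parietal cells.

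The promoters of Kcnj15, Kcne3, Fxyd3 and Fxyd6 are shown because reads of these 4 genes were fewer in CDX2 lines or in small intestine organoids than in GFP lines, and CDX2 and HNF4A bind DNA. Each window runs from 250 bases before to 50 bases after a RefSeq transcription start in GRCm38.p6, 5' to 3' on the gene's strand; for Kcne3, which has 2 starts in that table, the upstream one is printed. Capitals mark matches to the letters searched on both strands, TTTATNG for CDX2, CAAAGTNCA for HNF4A and AGATAA for GATA factors.
Kcnj15, chr16:95257308-95257607, plus strand: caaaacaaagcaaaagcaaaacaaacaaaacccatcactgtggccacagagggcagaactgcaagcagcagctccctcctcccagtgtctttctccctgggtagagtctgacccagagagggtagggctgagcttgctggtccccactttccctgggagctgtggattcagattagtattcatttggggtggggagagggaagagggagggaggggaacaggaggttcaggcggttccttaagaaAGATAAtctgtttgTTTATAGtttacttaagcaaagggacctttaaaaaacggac
Kcne3, chr7:100176420-100176719, plus strand: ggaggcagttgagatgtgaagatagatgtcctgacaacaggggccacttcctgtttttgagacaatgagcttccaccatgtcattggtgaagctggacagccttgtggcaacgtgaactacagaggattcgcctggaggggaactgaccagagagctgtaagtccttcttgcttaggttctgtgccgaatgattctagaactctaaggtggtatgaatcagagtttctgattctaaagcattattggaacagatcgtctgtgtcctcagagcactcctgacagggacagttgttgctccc
Fxyd3, chr7:31076648-31076947, minus strand: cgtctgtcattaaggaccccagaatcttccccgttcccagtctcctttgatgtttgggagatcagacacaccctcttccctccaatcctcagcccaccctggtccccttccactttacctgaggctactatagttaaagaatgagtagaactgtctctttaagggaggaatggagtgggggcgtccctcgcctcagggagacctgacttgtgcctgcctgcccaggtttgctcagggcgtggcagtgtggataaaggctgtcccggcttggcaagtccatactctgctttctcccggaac
Fxyd6, chr9:45369935-45370234, plus strand: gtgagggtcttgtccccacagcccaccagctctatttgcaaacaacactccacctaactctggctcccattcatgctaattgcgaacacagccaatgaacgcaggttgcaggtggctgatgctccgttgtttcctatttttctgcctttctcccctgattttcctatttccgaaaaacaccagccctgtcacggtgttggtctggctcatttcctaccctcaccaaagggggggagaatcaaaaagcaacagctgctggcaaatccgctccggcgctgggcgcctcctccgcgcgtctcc
Of these 4 windows, the Kcnj15 promoter held matches: AGATAA from position -5 and TTTATAG, a CDX2 match, from position 10, counted with the first transcribed base as 1. The matches did not overlap each other. Among all 32851 promoter windows of that length, TTTATNG occurred in 10.9%, CAAAGTNCA in 1.41% and AGATAA in 11.2%. A match is a run of letters and not a measured binding site, and the absence of a match says only that the letters are not in the window. The other Kcne3 window, the Aqp3 window and 3 of the 4 Kcnj16 windows held no match, and the fourth Kcnj16 window held 1 AGATAA. Kcnq1 had no window in the table, and a window of Aqp4 was not analysed here.

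Depth and labels were checked first. Total counts ran from 6180498 to 11465309 per library, and 3 counts in a library correspond to 0.256 to 0.473 CPM, the standard count unit relative to the library total, here scaled with TMM factors. Cdx2 ran from 62.0 to 288 CPM in CDX2 lines, 3.19 to 7.44 in GFP lines, 22.6 to 50.7 in HNF4A lines and 272 to 282 in small intestine organoids, and Hnf4a ran from 289 to 502 CPM in HNF4A lines against 95.7 to 158 in GFP lines. In the deletion series Cdx2 ran from 16.7 to 58.5 CPM in wild type, 5.55 to 18.4 in heterozygous and 0.199 to 1.36 in homozygous libraries. Transgene and endogenous reads of Cdx2 or Hnf4a cannot be told apart. Epithelial markers (Epcam, Cdh1, Krt8 and Krt18) summed to 3088 CPM or more in every library. Of the defining parietal markers, Atp4b reached at most 0.201 CPM, Slc26a7 at most 0.116 and Atp4a at most 4.38, so these markers of acid-secreting cells were at or near 0. The whole list of 6 parietal markers in the table, which also holds Aqp4 itself, Gif, in the mouse a chief cell product, and Esrrg, summed to 373 to 955 CPM in GFP, 167 to 447 in HNF4A and 315 to 405 in CDX2 lines, 18.1 to 65.2 in small intestine and 160 to 761 in the antrum libraries. In bulk RNA, fewer cells of a type and less RNA per cell cannot be told apart.

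Kcne3, the channel subunit, was the 1 member called between CDX2 and GFP gastric lines. The CDX2 lines 1, 2 and 3 had 28.8, 47.2 and 18.6 CPM, and the GFP lines 246, 253 and 91.3 CPM. Every CDX2 line lay below every GFP line, and the third line was the lowest in both. The HNF4A lines stood between them at 105, 140 and 89.3 CPM, overlapping GFP and not overlapping CDX2. Both small intestine organoids, at 59.6 and 55.8 CPM, lay in the gap between the CDX2 and the HNF4A lines.

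Averaged, Kcne3 stood at 31.5 ± 14.5 CPM (SD, n = 3) with CDX2 against 197 ± 91.4 CPM (SD, n = 3) with GFP. The log2 fold change was -2.64 ± 0.43 (SE), or 6.23-fold lower (adjusted p = 0.0363, edgeR's quasi-likelihood test over all 12720 genes tested with Benjamini-Hochberg adjustment, the source of adjusted p-values below unless another tool is named). Line numbers were taken to link the gastric lines, since deviations of same-numbered lines correlated in all 9 pairs. That link is drawn from these same libraries, and differently numbered lines were not compared as a reference. Within a line number Kcne3 was 8.56-, 5.35- and 4.90-fold lower with CDX2 than with GFP. With the line number as a block the log2 difference was -2.61 (adjusted p = 0.00299). Here and below, that block also joined small intestine libraries 1 and 2 to gastric lines 1 and 2. Their numbers do not link them to those lines, and a block of gastric lines alone was not fitted. The call at 0.05 was lost when CDX2 replicate 1 or 3, GFP replicate 1 or 2, HNF4A replicate 1 or 2, or either small intestine library was left out of the fit, with adjusted p-values from 0.0202 to 0.173 and log2 values from -3.05 to -2.37 over the 11 fits that left out 1 library.

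Against HNF4A lines, Kcne3 in CDX2 lines was lower by a log2 fold change of -1.82 ± 0.42 (SE, adjusted p = 0.336), and -1.90 ± 0.24 with the line block (adjusted p = 0.0314). HNF4A against GFP gave -0.82 ± 0.41 (SE, adjusted p = 0.936), with the third line pair nearly equal at 89.3 and 91.3 CPM. With the line block that difference was -0.71 ± 0.23 (SE, adjusted p = 0.253). The CDX2 and the HNF4A comparison with GFP share the same 3 GFP libraries. Small intestine against GFP gave -1.77 ± 0.48 (SE, adjusted p = 0.0241), which passed the threshold in the full fit. That call was lost without GFP replicate 1 (adjusted p = 0.0581), GFP replicate 2 (0.0655), small intestine replicate 1 (0.138) or small intestine replicate 2 (0.0994).

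**Figure D1:**
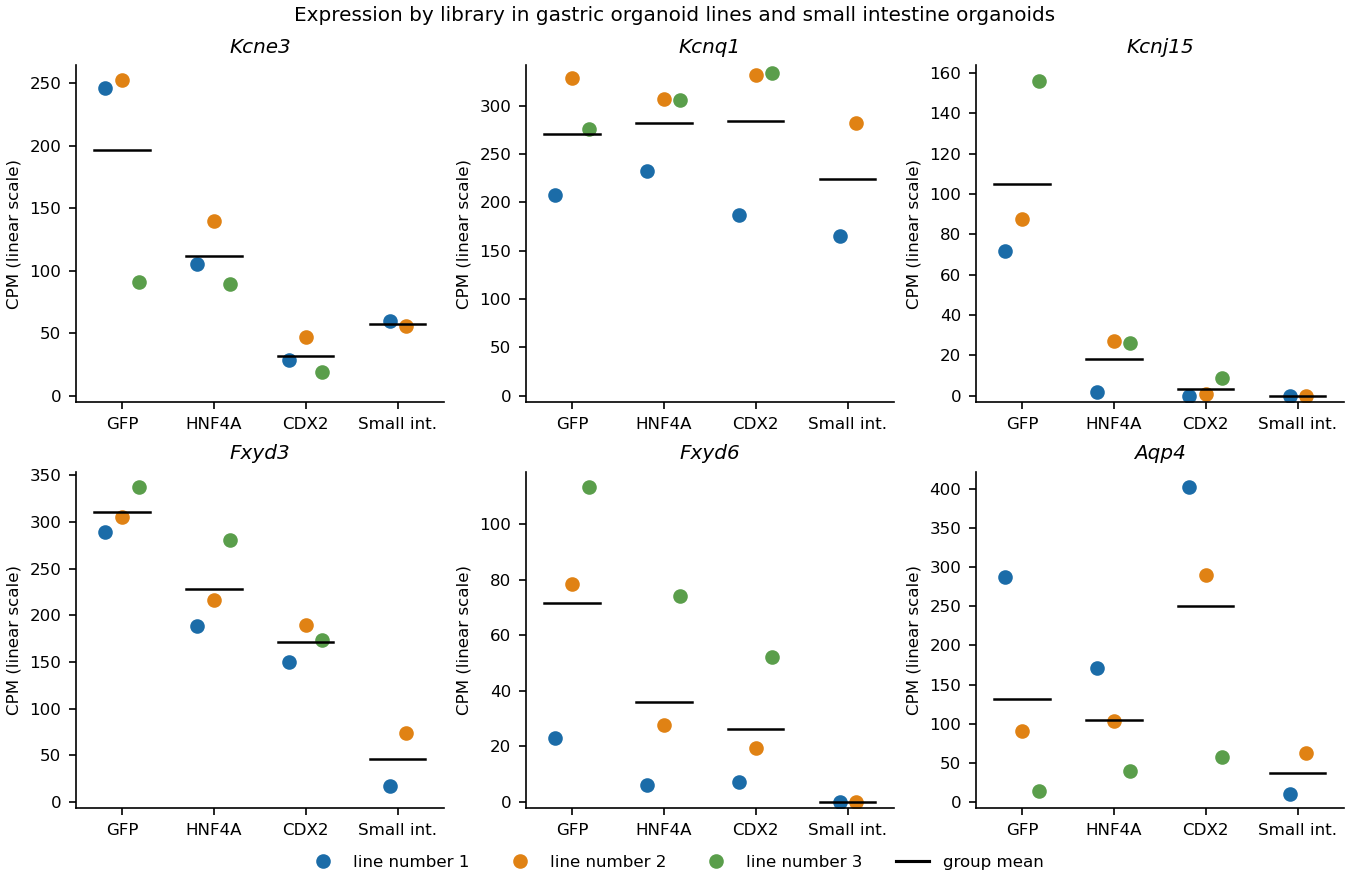
CPM of 6 member genes in each gastric line or small intestine organoid library (points, coloured by line number; black bars are group means; linear axes that differ between genes). Kcne3 and Kcnj15 points of CDX2 lines lie below all GFP points, Kcnq1 points overlap in all groups, and the numbers of small intestine organoids do not link them to the gastric lines.

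Kcnq1, the pore-forming partner of KCNE3, did not follow its subunit. GFP lines had 207, 328 and 276 CPM, HNF4A lines 232, 307 and 306, CDX2 lines 187, 332 and 333, and small intestine organoids 165 and 282. The ranges of all 4 groups overlapped, and the first line was the lowest in each gastric group. The log2 fold change was 0.07 ± 0.29 (SE, adjusted p = 0.962) for CDX2 against GFP, 0.06 ± 0.29 for HNF4A against GFP and -0.28 ± 0.32 (SE, adjusted p = 0.544) for small intestine against GFP. Kcne2, the gene of the KCNQ1 partner in parietal cells, was at or below 0.960 CPM in every library of the lines. Kcnq1ot1, an RNA gene at chr7:143213111-143296547, lies inside Kcnq1 at chr7:143106877-143427050 (GRCm38.p6), and without a stated strand setting their reads may not be fully separate. It differed from Kcnq1 in that it was lower in small intestine than in GFP lines, by a log2 fold change of -1.10 ± 0.30 (SE, adjusted p = 0.0236).

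Kcnj15, an inward rectifier, had reads in every GFP line and none in small intestine organoids. GFP lines had 71.7, 87.7 and 156 CPM, HNF4A lines 1.86, 27.2 and 26.1, CDX2 lines 0, 0.965 and 8.84, and both small intestine libraries 0. Neither the HNF4A nor the CDX2 lines overlapped GFP, while those groups overlapped each other. The third line was the highest with GFP and with CDX2. For CDX2 against GFP the log2 fold change was -5.10 ± 1.34 (SE, adjusted p = 0.168), and with the line block it was -5.76 ± 1.00 (SE, adjusted p = 0.0289). For HNF4A against GFP it was -2.52 ± 1.16 (SE, adjusted p = 0.893), and with the line block -2.98 ± 0.85 (SE, adjusted p = 0.229).

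Within line numbers, Kcnj15 was 90.9-fold lower with CDX2 in the second line and 17.7-fold lower in the third, on 8 and 56 counts with CDX2. The first CDX2 line had 0 reads, against 71.7 CPM with GFP. With HNF4A it was 38.6-, 3.23- and 5.97-fold lower than with GFP in lines 1, 2 and 3, the first on 16 counts. Small intestine organoids had 0 reads in both libraries, which puts Kcnj15 at least 696-fold below the GFP mean of 105 ± 44.8 CPM (SD, n = 3), taking 3 counts over the pair of libraries, 0.151 CPM, as the limit (adjusted p = 0.0125). Without small intestine replicate 1 the adjusted p was 0.0869. Kcnj16, the other inward rectifier, had 1 read in all 20 libraries together, in wild-type antrum replicate 2, and was tested in neither experiment.

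Fxyd3, a modulator of the sodium pump, was ordered GFP, HNF4A, CDX2 and small intestine by group mean. GFP lines had 290, 305 and 338 CPM, HNF4A lines 188, 216 and 281, CDX2 lines 150, 190 and 173, and small intestine organoids 17.0 and 74.2. The GFP lines lay above all other libraries, the HNF4A and CDX2 ranges overlapped, and the small intestine libraries lay below all gastric ones. The log2 fold change was -0.86 ± 0.41 (SE, adjusted p = 0.476) for CDX2 against GFP and -0.45 ± 0.41 (SE, adjusted p = 1) for HNF4A against GFP. Small intestine against GFP gave -2.77 ± 0.51 (SE), 6.83-fold lower (adjusted p = 0.00554). That difference stayed past the threshold in each fit that left out 1 library.

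Fxyd6, the other FXYD modulator of the set, varied with the line number. GFP lines 1, 2 and 3 had 23.2, 78.5 and 113 CPM, HNF4A lines 6.16, 27.7 and 74.2, and CDX2 lines 7.24, 19.3 and 52.2, and both small intestine libraries had 0. The groups of gastric lines overlapped, but in each of them the first line was the lowest and the third the highest, 4.89-, 12.0- and 7.21-fold apart with GFP, HNF4A and CDX2. Within line numbers Fxyd6 was 3.20-, 4.06- and 2.17-fold lower with CDX2 than with GFP. The log2 fold change was -1.46 ± 0.95 (SE, adjusted p = 0.655), and -1.62 ± 0.25 (SE, adjusted p = 0.0202) with the line as a block. HNF4A against GFP gave -0.99 ± 0.93 (SE, adjusted p = 1), and -1.31 ± 0.25 (SE, adjusted p = 0.0731) with the line block. Within line numbers Fxyd6 was 3.76-, 2.83- and 1.53-fold lower with HNF4A than with GFP. With 0 reads, Fxyd6 in small intestine was at least 474-fold lower than the GFP mean of 71.6 ± 45.5 CPM (SD, n = 3; adjusted p = 0.00807), and without small intestine replicate 1 the adjusted p was 0.0656.

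Aqp4, the water channel, had an order of lines opposite to that of Fxyd6 and was not called. GFP lines 1, 2 and 3 had 288, 91.2 and 14.6 CPM, HNF4A lines 171, 104 and 39.9, and CDX2 lines 402, 289 and 57.7, and small intestine organoids had 9.78 and 63.2. All groups overlapped, and in each gastric group the first line was the highest and the third the lowest, 19.7-, 4.28- and 6.97-fold apart with GFP, HNF4A and CDX2. Within line numbers Aqp4 was 1.40-, 3.17- and 3.96-fold higher with CDX2 than with GFP. The log2 fold change was 0.93 ± 1.04 (SE, adjusted p = 0.820), and it was 1.17 ± 0.71 (SE, adjusted p = 0.398) with the line block. HNF4A against GFP gave -0.32 ± 1.03 and small intestine against GFP -1.85 ± 1.24 (SE, adjusted p = 0.284). Aqp3, the basolateral glycerol channel, was at or below 3.25 CPM everywhere, with 0 to 28 counts per library, and its largest value came from HNF4A line 1.

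**Figure D2:**
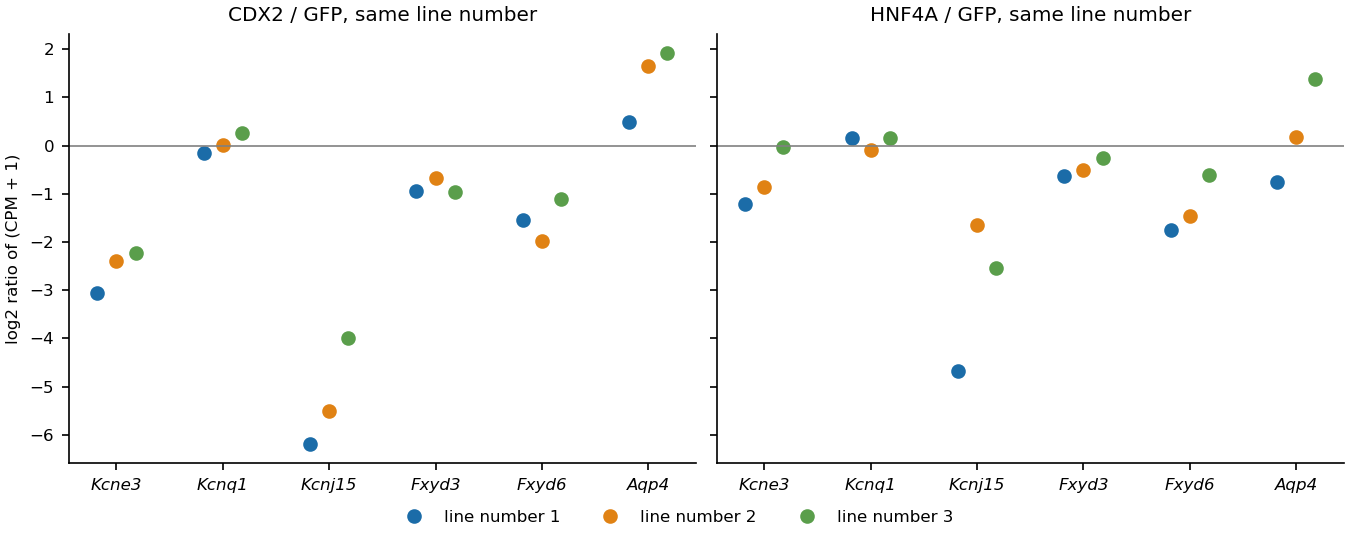
Ratio of CDX2 (left) or HNF4A (right) to GFP in lines of the same number, as log2 of (CPM + 1), for 6 member genes (points coloured by line number; the grey line is no difference). Kcne3, Kcnj15, Fxyd3 and Fxyd6 lie below 0 in all 3 pairs with CDX2 and also with HNF4A, where the third Kcne3 point is close to 0. Aqp4 lies above 0 in all 3 CDX2 pairs and on both sides with HNF4A. How many of all genes keep 1 direction in 3 pairs was not counted.

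Counted together, 1 of the 7 members tested was called lower in CDX2 than in GFP lines, where 0.409% of all genes were called in either direction and 0.0708% were called lower. No member was called for HNF4A against GFP (0.142% of all genes called) or for CDX2 against HNF4A (0.0236% called). At an unadjusted p under 0.05, edgeR gave 0 and 1 members in those comparisons, with 733 and 659 of all 12720 genes, and 2 members with 1430 genes for CDX2 against GFP. For HNF4A against GFP and CDX2 against HNF4A, DESeq2 called 0 and 1 members (Kcne3), where it called 1.74% and 1.09% of all genes. For small intestine against GFP, 4 of 7 were called, all lower, where 27.1% of all genes were called and 12.9% were called lower. These shares are a description, since the members were named with such results known. Marker lists of other cells differed between the same groups: the 5 chief and gland cell markers summed to 3507 to 13843 CPM in GFP, 973 to 9582 in HNF4A and 205 to 2610 in CDX2 lines and 6.05 to 61.9 in small intestine, and the 8 intestinal epithelium markers to 317 to 398, 646 to 951, 659 to 1764 and 1799 to 2102 CPM. The 4 pit mucous cell markers did not follow that order, with 3.19 to 107 CPM in GFP, 3.67 to 478 in HNF4A, 2.01 to 20.8 in CDX2 and 0.279 to 6.15 in small intestine libraries. The part of cell content in the member values was not tested. The plot of fold changes against GFP sets the 6 abundant members side by side.

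**Figure D3:**
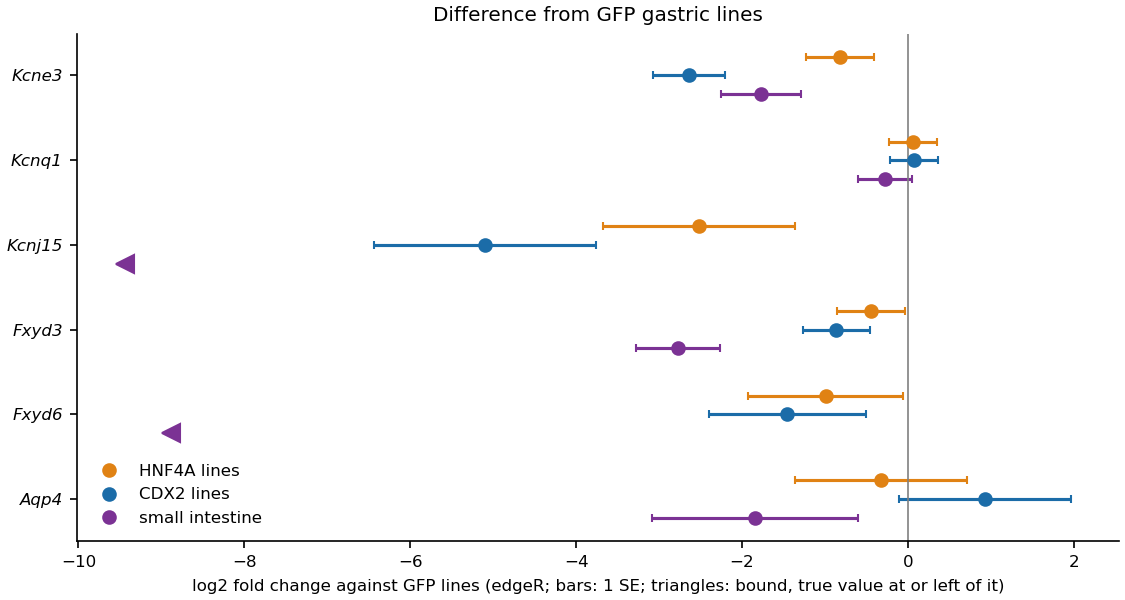
Log2 fold change against GFP lines for HNF4A lines, CDX2 lines and small intestine organoids (points, edgeR; bars are 1 SE), with triangles for Kcnj15 and Fxyd6 in small intestine, where both libraries had 0 reads and the true value lies at or left of the bound. The 3 comparisons share their GFP libraries; Kcnq1 lies near 0 in each.

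Of the partners of FXYD proteins, Atp1b1, the beta subunit of the Na,K-ATPase, had 1335 ± 93.7 CPM (SD, n = 3) in GFP lines, 1495 ± 106 in HNF4A lines and 906 ± 172 in CDX2 lines (SD, n = 3 each), and 817 ± 81.1 CPM (SD, n = 2) in small intestine. All CDX2 and small intestine libraries lay below all GFP lines. Its log2 fold change was -0.71 ± 0.22 (SE, adjusted p = 0.0371) for small intestine and -0.56 ± 0.19 (SE, adjusted p = 0.283; 0.0411 with the line block) for CDX2 against GFP. The small intestine call was lost without any GFP line, HNF4A 2, or small intestine 1 or 2 (adjusted p up to 0.226). Fxyd2, the classical FXYD subunit of the kidney pump, reached at most 0.123 CPM in the lines. Fxyd5 was the 1 other FXYD gene tested there, and was not called in any comparison of the lines.

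Among other aquaporins, Aqp5, an apical water channel of secretory glands, was read throughout the gastric lines. It had 1411 ± 453 CPM (SD, n = 3) in GFP, 994 ± 274 in HNF4A and 540 ± 306 in CDX2 lines, and 2.20 ± 2.32 CPM (SD, n = 2) in small intestine. Its log2 fold change was -9.35 ± 1.04 (SE, adjusted p = 0.000781) for small intestine and -1.38 ± 0.60 (SE, adjusted p = 0.413) for CDX2 against GFP, where all 3 CDX2 lines lay below GFP. Aqp1, a water channel of endothelium and other epithelia, lay in the other direction: 9.15 ± 7.03 CPM with GFP, 57.5 ± 39.6 with CDX2, 75.4 ± 44.6 with HNF4A (SD, n = 3 each) and 53.4 ± 38.6 in small intestine (SD, n = 2). For Aqp1 the log2 fold change was 2.65 ± 0.83 (SE, adjusted p = 0.236; 0.0293 with the line block) for CDX2 and 3.05 ± 0.84 (SE, adjusted p = 0.333; 0.0371 with the block) for HNF4A. The endothelial marker list summed to 1.51 to 3.26 CPM in CDX2, 1.91 to 2.72 in HNF4A and 2.45 to 5.02 in GFP lines. Of 4 other aquaporins tested, 2 were called lower in small intestine, where 12.9% of all genes were called lower, namely Aqp5 and Aqp2 (-6.06 ± 1.65 SE, adjusted p = 0.0239), and none in CDX2 or HNF4A lines. The Aqp2 call was lost without GFP 2 (adjusted p = 0.0557), small intestine 1 (0.169) or small intestine 2 (log2 -9.09, 0.0587).

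Other potassium channel genes were called in both directions. Of 26 other genes with a Kcn symbol tested, 3 were called higher and 3 lower in small intestine than in GFP lines, where 27.1% of all genes were called, with a median log2 fold change of -0.72 against -0.01 over all genes. The higher genes were the two-pore-domain channels Kcnk6 (1.98 ± 0.33 SE, adjusted p = 0.00369) and Kcnk5 (2.67 ± 0.85 SE, adjusted p = 0.0417) and the silent subunit Kcnf1 (3.69 ± 1.13 SE, adjusted p = 0.0366). The lower genes were Kcnq5 (-4.97 ± 0.93 SE, adjusted p = 0.00584), Kcnn1 (-2.77 ± 0.60 SE, adjusted p = 0.00980) and the RNA gene Kcnq1ot1. Leaving out 1 library ended the call of Kcnk5 in 7 of 11 fits (adjusted p up to 0.137; without CDX2 1 or 2, GFP 1 or 2, HNF4A 2, or small intestine 1 or 2) and of Kcnf1 in 6 (up to 0.168; without any GFP line, HNF4A 2, or small intestine 1 or 2). It ended the call of Kcnq1ot1 without GFP 2 (0.0613) or small intestine 1 (log2 -0.64, 0.149) and of Kcnn1 without small intestine 1 (0.0887). None of the 26 was called for CDX2 or HNF4A against GFP, with list medians of 0.00 and -0.09.

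Transporters that work with these channels were compared against the 27.1% of all genes called in small intestine and 0.409% in CDX2 lines. Of 11 acid and chloride secretion genes tested, 3 were called in small intestine: Cftr, the chloride channel of secretory epithelia, was higher (2.70 ± 0.63 SE, adjusted p = 0.0135), and the gastric chloride transporter Slc26a9 (-6.86 ± 1.47 SE, adjusted p = 0.00978) and the muscarinic receptor Chrm3 (-3.97 ± 0.78 SE, adjusted p = 0.00706) were lower. Of 11 epithelial ion transporters, 6 were called in small intestine, and 2 of them were higher, Slc5a1, the intestinal sodium-glucose cotransporter (5.72 ± 0.64 SE, adjusted p = 0.000781), and Slc26a6 (2.44 ± 0.65 SE, adjusted p = 0.0215). The other 4 called were lower, Slc9a3, Slc9a4, Scnn1a and Scnn1b, of which the sodium-proton exchanger Slc9a3 gave -6.55 ± 0.95 (SE, adjusted p = 0.00235). Slc5a1 was also the 1 gene of these families called for CDX2 against GFP (3.43 ± 0.58 SE, adjusted p = 0.0419), and none was called for HNF4A against GFP. The Slc5a1 call with CDX2 was lost in 9 of 11 fits that left out 1 library, all but those without CDX2 3 or GFP 3 (adjusted p from 0.0204 to 0.190). In small intestine the calls of Cftr (0.0540), Slc26a9 (0.0812) and Chrm3 (0.0774) were lost without small intestine 1. Those of Scnn1a and Scnn1b were lost without small intestine 1 (0.0674 and 0.0950) or 2 (0.0506 and 0.0506), that of Slc26a6 without GFP 1 or 2 or small intestine 1 or 2 (up to 0.0818), and that of Slc9a4 without any GFP line or HNF4A 2 (up to 0.0625).

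Neighbouring genes bear on how far the counts belong to the members alone. RefSeq places Fxyd3 at chr7:31070535-31076697 and Lgi4 at chr7:31058909-31070935 (GRCm38.p6), so that 401 bases overlap. The CPM ratio of Fxyd3 to Lgi4 was 0.979 to 1.31 in the lines and 1.18 to 1.45 in the antrum organoids, and their log2 CPM correlated at 0.998 over 11 and 0.973 over 9 libraries. Lgi4 differed from GFP in small intestine by -2.70 ± 0.47 (SE, adjusted p = 0.00465), close to the value of Fxyd3. Whether reads of one are counted for the other was not tested.

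Lipt2, at chr7:100159277-100160931, lies 15.6 kb before Kcne3 at chr7:100176507-100184869 and was the gene most similar to it across the lines. Their log2 CPM correlated at 0.968 over 11 libraries of the lines and at 0.342 over the 9 antrum libraries. Lipt2 was lower in CDX2 than in GFP lines (-2.17 ± 0.32 SE, adjusted p = 0.0255) and lower in small intestine (-1.57 ± 0.36 SE, adjusted p = 0.0125). The first call was lost without CDX2 1 (0.0858), CDX2 2 (0.0603), GFP 1 (0.105) or GFP 2 (0.0872), and the second without small intestine 1 (0.0747) or 2 (0.0680). Hpn, beside Fxyd3, was lower in small intestine (-5.49 ± 0.81 SE, adjusted p = 0.00258), where 12.9% of all genes were called lower. Other flanking genes, such as Trpm5, Cdkn1c and Erg, are not reported here. The CPM ratio of Kcne3 to Lipt2 was 2.81 to 7.05 in the lines and 3.32 to 9.31 in the antrum organoids. Kcne3 itself ran from 18.6 to 253 CPM in the lines and from 145 to 401 CPM in the antrum organoids. The 2 correlations therefore cover unlike ranges of Kcne3. The plot of both gene pairs shows a looser ratio for the Kcne3 pair than for the Fxyd3 pair.

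**Figure D4:**
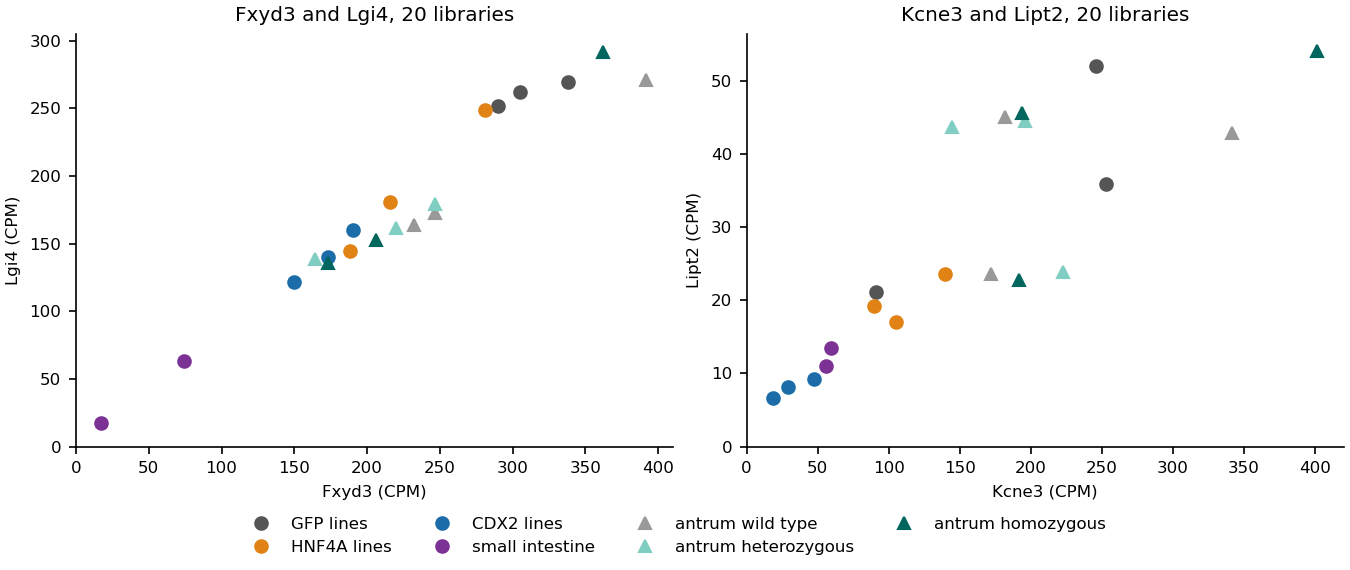
CPM of Fxyd3 against Lgi4 (left) and of Kcne3 against Lipt2 (right) in the 20 libraries (circles, gastric lines and small intestine; triangles, antrum organoids; the experiments were scaled separately). The Fxyd3 points lie along 1 line in both experiments, while at similar Kcne3 the antrum libraries span Lipt2 values that differ.

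By likeness across the 11 libraries of the lines (Pearson's r of log2 CPM among 9751 candidate genes), the genes nearest to the other members were Cyp26b1 (0.930) and Acnat1 (0.921) for Kcnq1, Ggcx (0.973) and Pla2g4c (0.972) for Kcnj15, and Dtna (0.987) after Lgi4 for Fxyd3. For Fxyd6 they were Mfhas1 (0.993) and Sox5 (0.992), for Aqp4 Cblc (0.966) and Dmbt1 (0.962), and after Lipt2 the second for Kcne3 was Herpud1 (0.942). These values describe shared order over libraries of which several share a group and a line number. For Aqp3 the highest values were 0.840 for Pim3 and 0.814 for Tchh. In the antrum libraries the nearest genes were others, such as Foxp4 (0.978) for Kcne3 and Slc22a5 (0.948) for Aqp4, except that Lgi4 stayed the nearest to Fxyd3.

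In the antrum organoids, the wild-type libraries stood apart from both deletion genotypes for Aqp4. Wild-type libraries had 209, 187 and 203 CPM, heterozygous 104, 105 and 74.0, and homozygous 130, 129 and 97.8. Every deletion library lay below every wild-type library, a separation not counted over all genes, and the heterozygous and homozygous ranges overlapped. The means were 200 ± 11.6, 94.4 ± 17.7 and 119 ± 18.6 CPM (SD, n = 3 each). The log2 fold change was -1.08 ± 0.18 (SE, adjusted p = 0.457) for heterozygous and -0.74 ± 0.18 (SE, adjusted p = 0.877) for homozygous against wild type, with unadjusted p-values of 0.00017 and 0.00215 in edgeR's fit. DESeq2 gave adjusted p-values of 2.31e-05 and 0.0133. Homozygous against heterozygous gave 0.34 ± 0.18 (SE, adjusted p = 1).

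Marker sums of fibroblasts and epithelium differed between wild type and both deletion genotypes. The 12 fibroblast markers summed to 3.31 to 6.74 CPM in wild type, 102 to 1298 in heterozygous and 37.6 to 1098 in homozygous libraries, and the 4 epithelial markers to 5223 to 7583, 3088 to 5189 and 3153 to 5154 CPM. Per 1000 CPM of epithelial markers, Aqp4 was 26.8 to 35.7 in wild type, 20.1 to 25.0 in heterozygous and 25.1 to 31.0 in homozygous libraries, so that the homozygous range overlapped wild type and the heterozygous range did not. Without the 3 libraries richest in fibroblast markers (heterozygous 2 and 3 and homozygous 3), the log2 fold change of Aqp4 was -0.94 ± 0.16 (SE) for the 1 heterozygous library left, assumed to vary like the other groups, and -0.61 ± 0.12 (SE) for homozygous. The part of cell content in the Aqp4 values was not tested beyond these values.

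**Figure D5:**
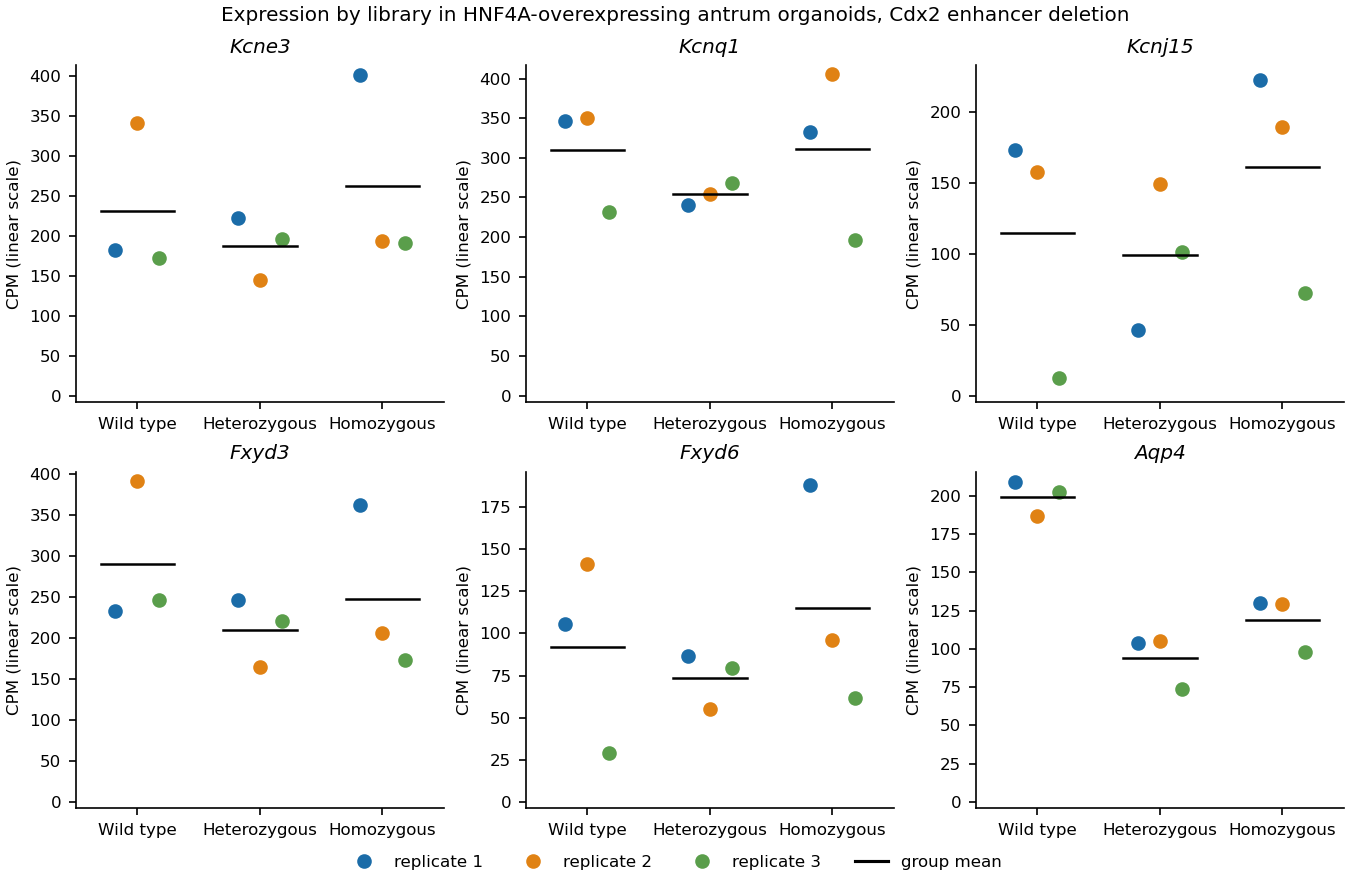
CPM of 6 member genes in each HNF4A-overexpressing antrum organoid library by genotype of the Cdx2 enhancer (points coloured by replicate number; black bars are group means; linear axes that differ between genes). Aqp4 is higher in the 3 wild-type libraries than in the 6 deletion libraries, and the groups overlap for the other 5 genes.

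The other members overlapped between genotypes. Kcne3 had 182, 342 and 172 CPM in wild type, 222, 145 and 196 in heterozygous and 401, 194 and 192 in homozygous libraries. Kcnq1 had 346, 351 and 231, then 240, 254 and 268, then 332, 406 and 196 CPM in the same order. Kcnj15 had 173, 158 and 12.5, then 46.3, 149 and 101, then 222, 189 and 72.5 CPM. For these 3 channel genes the ranges of the genotypes overlapped, and wild-type replicate 3 was the lowest of all for Kcnj15. Fxyd3 ran from 164 to 392 CPM and Fxyd6 from 29.0 to 188 CPM over the 9 libraries, and the lowest Fxyd6 value was again that of wild-type replicate 3. Kcnj15 gave the largest log2 fold change of these 5 against wild type, 0.50 ± 0.80 (SE, adjusted p = 0.999) in homozygous libraries.

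No member of the 6 tested was called in any deletion comparison by edgeR, where 0% of all 12593 genes were called. At an unadjusted p under 0.05 the count was 1 member against wild type for each genotype, Aqp4 both times, and 0 for homozygous against heterozygous, with 578, 1125 and 33 genes over the whole table. DESeq2 called Aqp4 in both comparisons with wild type, where it called 1.43% (homozygous) and 2.6% (heterozygous) of all genes, and no member between the deletion genotypes, where it called 0.00794%. Both comparisons with wild type share the 3 wild-type libraries. No gene of the family lists was called by edgeR. Slc5a1, at 13.6 ± 8.33 CPM (SD, n = 3) in wild type, was at 2.66 ± 0.388 in heterozygous and 1.36 ± 1.23 in homozygous libraries (adjusted p = 0.457 and 0.877). All 6 deletion libraries lay below every wild-type library, a separation not counted over all genes, and Slc5a1 was named here after its values were seen.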

How the data were processed

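The 20 RNA-seq libraries are poly-A selected and sequenced as paired reads, per the labels' protocols. Values are the authors' deposited raw read counts per gene symbol. STAR and mm10 are named in the submitters' processing notes; the labels record neither the counting program nor its annotation and strand setting, and reads of overlapping genes may be shared. The chromatin samples of the series were not used here.

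Each experiment was fitted whole in edgeR 4.0.16 under R 4.3.3 (TMM factors, robust two-sided quasi-likelihood test), keeping genes by filterByExpr (minimum count 10, minimum total 15). This left 12720 genes in the lines (7 of 8 members) and 12593 in the antrum organoids (6). A gene is called at a Benjamini-Hochberg adjusted p under 0.05. CPM values are counts divided by the scaled library size, and the SE of a log2 fold change is its size over the root of the F statistic. The fits were run on simulated data in which every gene had the same relative spread between libraries. That does not test them at the spread seen here. Depth was 6180498 to 11465309 counts per library; replicates differed by 22.7 to 88.4 times counting noise (chi-square per degree of freedom), so none agreed within counting noise. SD and SE values include the spread between these libraries, while the floors and the fold bounds built on them cover counting error only.

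Some genes are not reported here. Members and gene lists were chosen with earlier results of these data known. Named genes are the members, called genes of the family lists (at most 6 per list and comparison), known partners, neighbouring genes in RefSeq GRCm38.p6, and the 2 most similar genes per member with a mean of at least 10 CPM (log2 CPM with a prior count of 2). Aqp1, Aqp11 and Slc5a1 in comparisons without an edgeR call were named after their values were seen. Deviations of same-numbered libraries correlated from 0.336 to 0.751 in 9 pairs of gastric lines, so the line number is taken to pair those. Between deletion and wild type the correlations ran from -0.290 to 0.244 (6 pairs), between small intestine and gastric lines from -0.0881 to 0.118 (6 pairs), and between the deletion genotypes from 0.188 to 0.530 (3 pairs). Alternatives were DESeq2 1.42.0, RLE factors, no filter, the replicate block, leaving out each library, and leaving out the 3 fibroblast-rich libraries.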

Additional observations from a re-analysis of the deposited data

How the results depend on the processing

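Over the named genes and all settings other than leaving out 1 library, 392 values kept direction and side of the threshold, 19 passed it anew, 2 lost it (Atp1b1, adjusted p = 0.0606, and Slc9a4, 0.0523, for small intestine without a filter) and 9 changed sign. RLE factors and the absence of a filter changed no member's call. Where a cause is not named, the cause was not tested.

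DESeq2 called 493 genes for CDX2 against GFP, 221 for HNF4A against GFP, 139 for CDX2 against HNF4A, 180 for homozygous and 327 for heterozygous against wild type, and 1 between the deletion genotypes, where edgeR called 52, 18, 3, 0, 0 and 0. It called 1 member each for CDX2 against HNF4A (Kcne3, adjusted p = 0.00401), homozygous against wild type and heterozygous against wild type. In the lines the replicate block also held the small intestine libraries by their numbers, which do not pair them with gastric lines. It gave 578, 100 and 28 genes in the 3 comparisons of gastric lines, 5 for homozygous and 51 for heterozygous against wild type. It called 3 members for CDX2 against GFP, 1 for CDX2 against HNF4A and 1 for heterozygous against wild type (Aqp4, adjusted p = 0.0475, where the numbers do not pair the libraries), and changed no other member's call. With the block these log2 values changed sign, none called: Aqp3 -0.12 and Aqp4 0.13 for HNF4A against GFP, Kcnq1 -0.026 for CDX2 against HNF4A, Kcnq1 -0.012 for homozygous and Kcnj15 0.30 for heterozygous against wild type. Without the 3 fibroblast-rich libraries Atp1b1 gave 0.17 and Lgi4 0.14 for homozygous, and Aqp1 -0.22 and Lipt2 -0.64 for heterozygous against wild type.

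For the same genes in the fits that left out 1 library, 890 values kept direction and side of the threshold, 69 lost a call, 2 passed it anew and 47 changed sign. Leaving out 1 library at a time gave 11 to 107 called genes for CDX2 against GFP, 4 to 38 for HNF4A against GFP, 0 to 8 for CDX2 against HNF4A, 833 to 3619 for small intestine and 0 in the deletion comparisons; called members ran from 0 to 1 for CDX2 against GFP and from 1 to 4 for small intestine. Log2 ranges that crossed 0 were, for CDX2 against GFP, Kcnq1 -0.090 to 0.30; for HNF4A against GFP, Kcnq1 -0.10 to 0.22, Aqp3 -0.074 to 0.94, Aqp4 -0.87 to 0.99 and Kcnq1ot1 -0.21 to 0.018; for CDX2 against HNF4A, Kcnq1 -0.12 to 0.24 and Fxyd6 -1.44 to 0.62; and for small intestine, Kcnq1 -0.71 to 0.062. For homozygous against wild type they were Kcne3 -0.27 to 0.58, Kcnq1 -0.22 to 0.25, Kcnj15 -0.040 to 0.93, Fxyd3 -0.62 to 0.058, Fxyd6 -0.23 to 0.77, Aqp1 -0.10 to 1.00, Atp1b1 -0.33 to 0.19, Lgi4 -0.50 to 0.21 and Lipt2 -0.13 to 0.42. For heterozygous against wild type they were Kcne3 -0.49 to 0.090, Kcnj15 -0.75 to 0.22, Fxyd6 -0.75 to 0.12, Aqp1 -0.12 to 1.01, Aqp5 -0.27 to 0.17 and Lipt2 -0.24 to 0.25, and between the deletion genotypes Fxyd3 -0.14 to 0.45. Too few reads were counted to test Kcnj16 in either experiment or Aqp3 in the antrum organoids. In the lines Aqp3 was tested on few counts, so that differences may be missed.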

Other observations

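Aqp11, an aquaporin of intracellular membranes, stood at 7.57 CPM with GFP, 21.1 with HNF4A and 11.3 with CDX2 (means of 3 lines), a log2 fold change of 1.47 ± 0.35 for HNF4A against GFP (SE, adjusted p = 0.200 in edgeR; 0.0285 with the line block). Fxyd5, whose protein is also known from mesenchymal cells, averaged 1.29 CPM in wild-type, 9.95 in heterozygous and 4.89 in homozygous antrum libraries (n = 3 each), and heterozygous against wild type gave 2.94 ± 0.99 (SE, adjusted p = 0.470 in edgeR) beside the higher fibroblast marker sums of those libraries; the part of cell content was not tested. Gif, in the mouse a product of chief cells, was at 470 ± 434 CPM (SD, n = 3) in GFP lines and at 0 in both small intestine libraries.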
